A study of Mus musculus with 6 samples.

Results

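The SLC25 family of mitochondrial solute carriers was followed from splenic B cells to bone marrow plasma cells. Its members were taken as every gene whose annotated symbol is Slc25a followed by digits, and 44 such genes were measured among 18193 genes in all. The rule uses the symbol and no measured value. Each gene was read from its brightest probe set, the one with the highest mean log2 value over the 6 arrays. Of the 47 genes with such a symbol in the RefSeq gene table, the other 3 were not analysed here. The samples were 3 of B cells, sorted from spleen as B220+ CD23+ naive follicular cells, and 3 of plasma cells, sorted from bone marrow as B220- CD138+ cells, all of the C57BL/6 strain. A KLH boost (keyhole limpet hemocyanin, a protein antigen) preceded the plasma cell harvest by 7 days, and magnetic beads enriched CD138-bearing cells before the sort. Each plasma cell array held RNA of 50000 to 70000 cells and each B cell array RNA of 2000000 to 3000000 cells, amplified with NuGEN Ovation V2. Organ, boost, enrichment and cell number therefore changed along with the cell type, and their effects cannot be told apart. The age and sex of the animals, and whether arrays of a group came from different animals, are not given in the sources used here. By the sex-linked genes Xist and Kdm5d, given below, B cell array 1 did not share its animals with B cell arrays 2 and 3. Each p-value reflects only how far these arrays scatter, and the rest of that scatter may be technical.

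SLC25 proteins sit mostly in the inner mitochondrial membrane, fold as repeated pairs of membrane-spanning helices around a central cavity, and move one small molecule across, often in exchange for another. They carry ADP in and ATP out, bring in phosphate for ATP synthesis, export citrate and aspartate for synthesis in the cytosol, and import the iron, glutathione, nucleotides and cofactors that the matrix cannot make or cannot make enough of. Plasma cells secrete antibody at a high rate and so spend much ATP and amino acid, while naive B cells are small and quiescent.

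The labels were borne out by the markers of both cell types. All 8 measured plasma cell markers were higher in plasma cells and all 8 measured B cell markers lower, and Sdc1, which encodes CD138, read 13218, 12664 and 12851 on the plasma cell arrays against 969, 1065 and 1183 on the B cell arrays. B cell array 1 stood apart. Its median intensity was 130, against 86.7 to 95.1 on the other 5 arrays, and many T cell and red cell genes were higher on it than on B cell arrays 2 and 3. Of 9 T and NK cell markers 7 were above background and highest there among the B cell arrays, such as Cd3e with 1965, 27.2 and 36.5, while Cd2 was lowest there (4717, 6953 and 7154). Cd4 was within background on all 3 B cell arrays and read 311, 393 and 459 on the plasma cell arrays, a called rise (3.60 on the log2 scale). The summed intensity of the 9 was 9619, 7162 and 7434 on the B cell arrays, most of it Cd2, and 1486 to 2393 on the plasma cell arrays. Of 7 erythroid markers 5 were above background and highest on B cell array 1, led by Slc4a1 (1158, 18.4 and 37.3), while Klf1 and the globin gene Hba-a1 were within background on it. Granulocyte markers were high on that array and on the plasma cell arrays, with a summed intensity over 9 genes of 12953 on B cell array 1, 2878 and 1856 on B cell arrays 2 and 3, and 8812 to 21133 on the plasma cell arrays. Of 7 monocyte and macrophage markers 4 were called lower in plasma cells, Lyz2 (−2.21), Adgre1 (−2.19), Csf1r (−1.70) and Ccr2 (−1.60), and Cd68 was called higher (1.75), with summed intensities of 3867 to 6072 on the B cell arrays and 1887 to 2334 on the plasma cell arrays. Of 7 dendritic cell markers Flt3 (2.61) and Bst2 (2.35) were called higher and Zbtb46 (−0.99) and Cd209a (−1.26) lower. Of 8 basophil, mast cell and eosinophil markers, Prg2 and Kit carried nearly all of a summed intensity of 13926 to 14899.5 on the plasma cell arrays, where Epx, an eosinophil gene, was within background. The part of these other cell types in the results on the carriers was not tested. Xist was high on B cell array 1 and on all plasma cell arrays (8408 and 8070.4 to 8702) and low on B cell arrays 2 and 3 (30.8 and 18.1), and Kdm5d, on the Y chromosome, was the reverse, with 1507 and 1576 on B cell arrays 2 and 3 and 3 to 8.84 on the other 4. By these genes, B cell arrays 2 and 3 differ in sex from B cell array 1 and from every plasma cell array. Without array 1, sex therefore changed fully along with the cell type, and their effects cannot be told apart. With all arrays it changed in part. The part of sex in the calls was not tested. Results that change without B cell array 1 are given both ways. In bulk samples such as these, fewer cells of a type and less RNA per cell cannot be told apart.

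More members were higher than lower in plasma cells. Of the 44 members 13 rose and 2 fell, by limma with a Benjamini-Hochberg adjusted p under 0.05 over all genes, and 29 were not called. Over all 18193 genes 17.6% were called higher and 12.3% lower, 29.9% in either direction, against 29.5% and 4.55% of the members. By at least 2-fold, 9 members rose and 2 fell, where 10.9% and 6.78% of all genes did. The median log2 fold change of the members was 0.22, with a range from −2.41 to 2.24, and that of all genes was −0.06. By role, medians ran from −0.52 for the relatives of uncoupling proteins and −0.22 for the iron and glutathione carriers to 1.02 for the carboxylate carriers, with the other groups between 0.10 and 0.33. All 3 plasma cell arrays lay above all 3 B cell arrays for 21 members and below them for 10, where 25.4% and 22.4% of all genes did so. Without B cell array 1 the counts were 17 higher and 8 lower, against 22.7% and 21.1% of all genes. The median log2 fold change was then 0.15 for the members and 0.01 for all genes. With arrays weighted by their scatter, 19 members rose and 10 fell, against 26.6% and 25.6% of all genes. Intensities are linear values without unit, and a fold change is on the scale of log2(intensity + 16), which understates the change of dim genes. Background, the 95th percentile of 27 bacterial control probe sets, lay between 23.0 and 41.8 on the 6 arrays. Of the members 37 were above it on all 6 arrays, 6 on some, and 1, Slc25a54, on none.

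**Figure D1:**
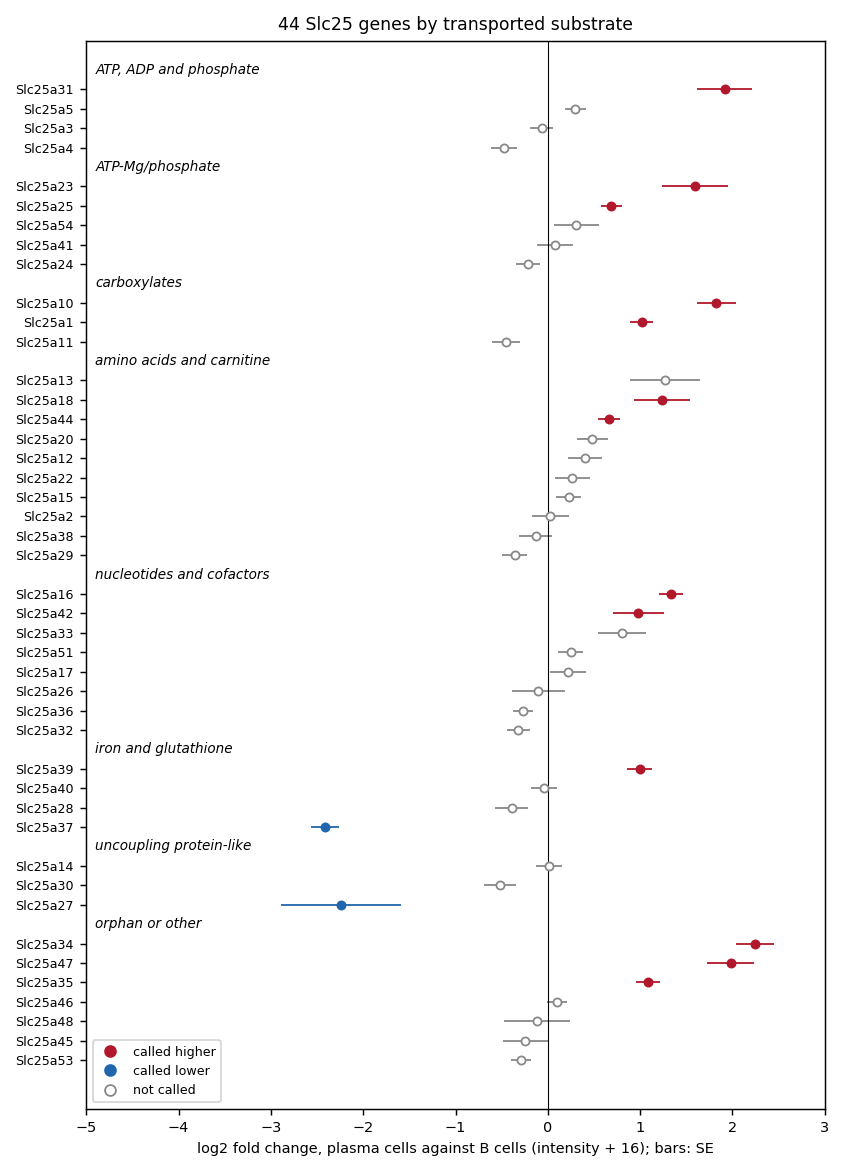
Log2 fold change of each of the 44 members, plasma cells against B cells, with its standard error as a bar, grouped by the substrate carried. Filled points passed the test, 13 on the right of the zero line and 2 on the left, and the 2 to the left, Slc25a37 (−2.41) and Slc25a27 (−2.24), lie far from the other members below zero.

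The start sites of the 4 members with the highest fitted fold changes are shown because these genes all rose in plasma cells. The windows run from 250 bases before to 50 bases after the RefSeq start, build GRCm38.p6, 5′ to 3′ on the strand of the gene. They are chr4:141623785-141624084, minus strand, for Slc25a34, chr12:108850879-108851178, plus strand, for Slc25a47, chr3:40708621-40708920, plus strand, for Slc25a31, and chr11:120491587-120491886, plus strand, for Slc25a10. Capitals mark matches on either strand to any of 5 motifs: GCGC and TGCGC with any 1 base between them (NRF1, a regulator of nuclear genes for mitochondrial proteins), CCGGAAG (ETS factors), CACGTG (the E-box of Myc and related factors), CCAAT (the CCAAT box) and GGGCGG (the GC box). No motif contains another.
Slc25a34: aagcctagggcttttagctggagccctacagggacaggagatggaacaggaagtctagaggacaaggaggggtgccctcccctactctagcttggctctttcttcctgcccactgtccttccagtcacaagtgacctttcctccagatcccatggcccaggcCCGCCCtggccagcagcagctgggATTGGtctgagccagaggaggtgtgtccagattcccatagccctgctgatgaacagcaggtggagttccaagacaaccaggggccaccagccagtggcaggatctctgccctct
Slc25a47: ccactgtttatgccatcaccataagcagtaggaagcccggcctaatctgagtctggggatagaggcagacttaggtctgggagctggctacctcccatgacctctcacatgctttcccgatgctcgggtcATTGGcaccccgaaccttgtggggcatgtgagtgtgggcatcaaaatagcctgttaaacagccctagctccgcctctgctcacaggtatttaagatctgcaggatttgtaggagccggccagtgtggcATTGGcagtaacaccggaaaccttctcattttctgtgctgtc
Slc25a31: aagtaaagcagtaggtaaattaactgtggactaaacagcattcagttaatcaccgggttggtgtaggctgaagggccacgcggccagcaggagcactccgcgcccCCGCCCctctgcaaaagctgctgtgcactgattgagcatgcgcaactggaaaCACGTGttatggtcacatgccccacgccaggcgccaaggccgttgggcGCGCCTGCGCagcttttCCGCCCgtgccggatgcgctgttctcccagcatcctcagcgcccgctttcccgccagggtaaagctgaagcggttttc
Slc25a10: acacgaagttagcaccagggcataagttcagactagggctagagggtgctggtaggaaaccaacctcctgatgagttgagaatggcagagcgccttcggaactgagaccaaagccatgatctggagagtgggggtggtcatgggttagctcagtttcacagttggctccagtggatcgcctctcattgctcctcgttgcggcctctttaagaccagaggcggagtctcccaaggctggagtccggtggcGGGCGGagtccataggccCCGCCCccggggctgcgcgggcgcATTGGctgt
No motif is common to the 4 windows. That of Slc25a31 held 1 NRF1 match, 1 E-box and 2 GC boxes, that of Slc25a10 held 1 CCAAT box and 2 GC boxes, that of Slc25a34 held 1 CCAAT box and 1 GC box, and that of Slc25a47 held 2 CCAAT boxes and no GC box. The RefSeq promoter table had 43 windows for 34 of the 44 members. GC boxes were found in 37 of 43 member windows (86%) and in 35.7% of all 32851 windows, CCAAT boxes in 21 of 43 member windows (48.8%) and in 37.4% of all, E-boxes in 8 of 43 member windows (18.6%) and in 7.15% of all, ETS motifs in 7 of 43 member windows (16.3%) and in 8.86% of all and NRF1 motifs in 2 of 43 member windows (4.65%) and in 4.6% of all. Of the 14 windows of members called higher, 11 held GC boxes, 10 CCAAT boxes, 2 E-boxes, 1 an ETS motif and 1 an NRF1 motif. A link of any motif to the rise was not tested. A match is a description of letters and not evidence of binding.

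Among the carriers of ATP, ADP and phosphate, 1 of 4 rose and 0 fell (25% and 0%, beside 17.6% and 12.3% of all genes). Slc25a31, the ADP/ATP carrier known from male germ cells, had intensities of 132, 100.5 and 64.9 in plasma cells and 24.4, 10.9 and 7.78 in B cells. All 3 B cell values lay within background, so the rise is given as at least 3.31-fold higher, computed without the added constant and with the B cell values set to background (log2 difference 1.92, SE 0.30, limma adjusted p = 0.00494). With their brightest probe sets the widely expressed ADP/ATP carriers did not pass the test. Slc25a4, the form prominent in heart and muscle, had 1944, 2029 and 2332 in plasma cells and 2586, 3070.2 and 3094 in B cells, every plasma cell array below every B cell array (log2 difference −0.47, SE 0.14, limma adjusted p = 0.0522). Its log2 fold change without B cell array 1 was −0.55 (adjusted p = 0.014), a call. Slc25a4 was also called lower with a pseudocount of 64, quantile normalization, the filter on low values, array weights or an intensity trend. In 11 of the 17 alternatives it was not called. Slc25a5, the form of dividing cells, had 9140.2, 9199.7 and 9518 in plasma cells and 7078, 7591 and 8018 in B cells, the reverse order, also without overlap (log2 difference 0.30, SE 0.11, limma adjusted p = 0.106). All 7 other probe sets of Slc25a5 were higher in plasma cells too, by 0.33 to 0.79, and 1 of them was called. The gene passed the test as higher when its probe sets were averaged, and with a pseudocount of 64, array weights or an intensity trend. Probe sets of Slc25a5 can share sequence with its pseudogenes. Slc25a3, which imports the phosphate used for ATP synthesis, had 7566, 7438 and 7739.8 in plasma cells and 7097, 8296 and 8493 in B cells, overlapping groups (log2 difference −0.07, SE 0.12, limma adjusted p = 0.731). No member reached more than 36.3% of the highest value on its array, so the bright carriers were not at the top of the scale.

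In the branch that exchanges ATP-Mg for phosphate and so sets the size of the matrix adenine nucleotide pool, 2 of 5 rose and 0 fell. These are 40% and 0%, beside 17.6% and 12.3% of all genes. Slc25a23, Slc25a24 and Slc25a25 have calcium-binding domains facing the outside of the inner membrane. Slc25a23 had 599, 558 and 573 in plasma cells and 94.6, 263 and 227 in B cells (log2 difference 1.60, SE 0.36, limma adjusted p = 0.0194). B cell array 1 was the low value, and without it the log2 fold change was 1.19 (adjusted p = 0.000883). The call was lost without any 1 of the 3 plasma cell arrays, where the adjusted p reached 0.0711. Slc25a25 had 1542, 1599.5 and 1664 in plasma cells and 961, 960.3 and 1041 in B cells, with no overlap (log2 difference 0.69, SE 0.11, limma adjusted p = 0.00588). That value rests on a single probe set. The other 2 probe sets had log2 fold changes of −0.09 and 0.04, and the one with 0.04 was within background on every array. The call was lost when the 3 were averaged, when the called probe set was left out, and with median centring (adjusted p = 0.0501). Slc25a24 (−0.22), Slc25a41 (0.08) and Slc25a54, which was within background throughout, were not called.

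Of the 3 measured carriers of carboxylates 2 rose and 0 fell (66.7% and 0%, beside 17.6% and 12.3% of all genes). Slc25a10, the dicarboxylate carrier, which moves malate or succinate out against phosphate, had 557, 523 and 492 in plasma cells and 96.6, 163 and 159 in B cells (log2 difference 1.83, SE 0.21, limma adjusted p = 0.00154). In a separate fit over all probe sets, where 13.4% were called higher and 12.8% lower and which is the one used for second probe sets throughout, another probe set of the gene was higher by 1.82. Slc25a1, the citrate carrier, which supplies citrate to the cytosol for acetyl-CoA and lipid synthesis, had 437, 402 and 386 in plasma cells and 179.6, 193 and 209 in B cells (log2 difference 1.02, SE 0.12, limma adjusted p = 0.00182). For both genes the plasma cell arrays lay well above the B cell arrays and the call held under all 17 alternatives. Slc25a11, the oxoglutarate/malate carrier of the malate-aspartate shuttle, had 1522, 1395 and 1677 in plasma cells against 1792, 2254 and 2272 in B cells, a difference short of the threshold (log2 difference −0.45, SE 0.15, limma adjusted p = 0.0745). With B cell array 1 left out, the log2 difference was −0.56 (adjusted p = 0.0125), which passed the test. Slc25a11 was also called lower with a pseudocount of 64, quantile normalization, the filter on low values, array weights or an intensity trend. In 11 of the 17 alternatives it was not called.

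Among 10 carriers of amino acids, ornithine and carnitine 2 rose and 0 fell. The share called higher, 20%, was near the 17.6% of all genes, of which 12.3% were called lower. Slc25a44, which imports branched-chain amino acids, had 1413, 1449.9 and 1267 in plasma cells and 902, 836 and 845 in B cells (log2 difference 0.67, SE 0.12, limma adjusted p = 0.00823). Its other 2 probe sets had 0.32 and −0.26, and the one with −0.26 was within background on every array. The call was lost when all 3 were averaged (adjusted p = 0.252). Slc25a18, a glutamate carrier, had 29.6, 78.1 and 43.6 in plasma cells and 5.85, 12.6 and 15.3 in B cells, the latter within background on all 3 arrays, so it was at least 1.62-fold higher (log2 difference 1.24, SE 0.30, limma adjusted p = 0.0259). Its call was lost without B cell array 2 or 3 or plasma cell array 2 or 3, with an adjusted p of up to 0.0717. The plasma cell values of this gene also lay close to background, which was 26.8, 25.3 and 41.8 on those arrays. Slc25a13, or citrin, which exports aspartate in exchange for glutamate, had 304, 214 and 351 in plasma cells and 199, 77.7 and 79 in B cells, without overlap, and missed the threshold (log2 difference 1.27, SE 0.38, limma adjusted p = 0.0507). B cell array 1 was its high value in that group, and without it the log2 fold change was 1.67 (adjusted p = 0.00326), a call. Slc25a13 was also called higher with a pseudocount of 64, median centring, quantile normalization or the filter on low values. Averaged probe sets, array weights and an intensity trend gave the call too. In 9 of the 17 alternatives Slc25a13 was not called.

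The other 7 carriers of this group were not called. Slc25a20, which carries acylcarnitines in for fatty acid oxidation, was at 2169.6 ± 252 on the plasma cell arrays against 1556 ± 242 on those of B cells (SD, n = 3; log2 fold change 0.48), and without B cell array 1 it passed the test with 0.60 (adjusted p = 0.0162). Slc25a12, the aralar form of the aspartate/glutamate carrier, had a log2 fold change of 0.40, and its 2 other probe sets, both dimmer, gave 0.37 and −0.62. The glutamate carrier Slc25a22 (0.27), the ornithine carriers Slc25a15 (0.23) and Slc25a2 (0.03), the glycine carrier of heme synthesis Slc25a38 (−0.13) and the basic amino acid carrier Slc25a29 (−0.36) lay closer to zero than Slc25a20. All 4 other probe sets of Slc25a29 were lower too, with −1.07 to −0.18, and 1 of them was called. The gene was called lower when its probe sets were averaged (adjusted p = 0.0199).

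Of 8 measured carriers of nucleotides and cofactors 2 rose and 0 fell (25% and 0%, beside 17.6% and 12.3% of all genes). Slc25a16, linked to coenzyme A import through its yeast relative, had 1142, 1067 and 921 in plasma cells and 399, 413 and 391 in B cells (log2 difference 1.34, SE 0.13, limma adjusted p = 0.000811). The B cell arrays were close together and the call held under all 17 alternatives. Slc25a42, which brings coenzyme A into the matrix, had 275, 221 and 295 in plasma cells and 189, 88 and 114 in B cells (log2 difference 0.98, SE 0.28, limma adjusted p = 0.0428). Its call was lost with a pseudocount of 1 and without any 1 array other than B cell array 1, with an adjusted p of up to 0.131. It was 1.26 (adjusted p = 0.00383) without B cell array 1. Slc25a33, a pyrimidine nucleotide carrier, had 325, 291 and 294 in plasma cells and 109, 228 and 182 in B cells, with no overlap, and was not called (log2 difference 0.81, SE 0.26, limma adjusted p = 0.0644). It reached 0.54 (adjusted p = 0.0235) without B cell array 1, a call. Slc25a33 was also called higher with a pseudocount of 64, the filter on low values, array weights or without B cell array 2.

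The remaining 5 of these carriers had smaller differences and were not called. The NAD carrier Slc25a51 had a log2 fold change of 0.25 and the peroxisomal cofactor carrier Slc25a17 of 0.22. The other pyrimidine nucleotide carrier Slc25a36 had −0.27 and the folate carrier Slc25a32 −0.32. The other probe sets of Slc25a51 gave 0.38 and −0.48, and those of Slc25a36 gave 0.10 and −0.60, so both genes were mixed in direction. Slc25a36 was called lower with a pseudocount of 64, array weights or an intensity trend. Slc25a26, which imports S-adenosylmethionine, was uneven over its probe sets as well. The brightest gave −0.10 (adjusted p = 0.82), and the other gave 0.54, which was called higher when probe sets with the suffixes x_at and s_at were left out (adjusted p = 0.0266). Without B cell array 1 the brightest probe set was called lower, with −0.42 (adjusted p = 0.0274). The direction of Slc25a26 therefore depends on the probe set. Slc25a17 was called higher without that array, with 0.41 (adjusted p = 0.0296).

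The carriers of iron and glutathione differed in direction, with 1 of 4 higher and 1 lower (25% each, beside 17.6% and 12.3% of all genes). Slc25a37, or mitoferrin 1, which brings iron into mitochondria and is best known from red cell precursors, had 3139, 3298 and 3326 in B cells and 563, 529 and 721 in plasma cells (log2 difference −2.41, SE 0.15, limma adjusted p = 0.000181). The call held under all 17 alternatives. A second probe set, annotated to Slc25a37 and to another gene and therefore left out of the gene table, read 33.1, 111 and 138 in B cells and 6.1, 5.2 and 7.9 in plasma cells. Its values on B cell array 1 and on every plasma cell array lay within background. The summed intensity of the 7 erythroid markers, most of it Slc4a1 on B cell array 1, was 1694, 184 and 238 on the B cell arrays and 323 to 589 on the plasma cell arrays. Of the 7 monocyte and macrophage markers, the 4 named above were called lower as Slc25a37 was. Cd68 was called higher (1.75), and Cd14 (−0.28) and Fcgr1 (0.24) were not called. The part of either cell type in the value of Slc25a37 was not tested. Slc25a28, or mitoferrin 2, the form of other tissues, had 2036, 2890.3 and 2923 in B cells and 1846, 1939.8 and 2107 in plasma cells, overlapping groups (log2 difference −0.39, SE 0.18, limma adjusted p = 0.163). Leaving out B cell array 1 gave −0.56 (adjusted p = 0.008), a call.

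Slc25a39, which imports glutathione, the main thiol antioxidant of the matrix, had 3227, 3064 and 2912 in plasma cells and 1352, 1616 and 1639 in B cells (log2 difference 0.99, SE 0.13, limma adjusted p = 0.00263). All 4 other probe sets of the gene were called higher too, with log2 fold changes from 1.02 to 1.56. Its close relative Slc25a40 had 709, 596 and 711 in plasma cells and 773, 647 and 657 in B cells, overlapping groups (log2 difference −0.04, SE 0.14, limma adjusted p = 0.849).

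Of 3 members related to uncoupling proteins 0 rose and 1 fell (0% and 33.3%, beside 17.6% and 12.3% of all genes). Slc25a27, also called UCP4 and known mainly from brain, had 553, 133 and 119.8 in B cells and 66.1, 24 and 17 in plasma cells (log2 difference −2.24, SE 0.65, limma adjusted p = 0.0463). Only 1 of the plasma cell values was above background, so the size of the fall depends on the added constant. B cell array 1 held the high value, and without it the log2 fold change was −1.57 (adjusted p = 0.0334). T cell and red cell genes were also high on that array, and their part in this value was not tested. The call was lost with a pseudocount of 1 or 64 and without any 1 array other than B cell array 1, with an adjusted p of up to 0.141. The other 3 probe sets of the gene had log2 fold changes between −1.09 and −0.65, and 1 of them was called lower. Slc25a30 was at 282 ± 46.2 on the plasma cell arrays against 409 ± 50.4 on those of B cells (SD, n = 3), not called with all arrays (adjusted p = 0.0702) and called lower without B cell array 1, with −0.61 (adjusted p = 0.0344). It was also called lower with a pseudocount of 64, the filter on low values, array weights, or without x_at and s_at probe sets. Its 4 other probe sets were lower too, and 1 of them was called. Slc25a14 had overlapping groups and a log2 fold change of 0.01.

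Among 7 members without a settled substrate or outside these classes 3 rose and 0 fell (42.9% and 0%, beside 17.6% and 12.3% of all genes). Slc25a34 had 258, 213 and 206 in plasma cells and 43.1, 41.5 and 22.7 in B cells (log2 difference 2.24, SE 0.21, limma adjusted p = 0.000695). Its near relative Slc25a35 had 122, 147 and 149 in plasma cells and 52, 59.8 and 59.1 in B cells (log2 difference 1.09, SE 0.13, limma adjusted p = 0.00186). Both calls held under all 17 alternatives. Slc25a47, known from liver, had 232, 219 and 226 in plasma cells and 28.6, 43 and 71.3 in B cells (log2 difference 1.98, SE 0.25, limma adjusted p = 0.00231). It has a single probe set, of the s_at type, which can match more than 1 transcript. In B cells Slc25a34 and Slc25a47 were above background on only 2 of 3 arrays, so their folds depend on the added constant. Slc25a46, an outer membrane protein that acts in mitochondrial fusion and fission, read 3444, 3332 and 3310 in plasma cells and 3146, 3149 and 3106 in B cells, a narrow difference without overlap (log2 fold change 0.10, adjusted p = 0.525). Slc25a45 (−0.24), Slc25a48 (−0.12) and Slc25a53 (−0.29) were not called. Slc25a45 was called lower without B cell array 1, with −0.51 (adjusted p = 0.0089), and the second probe set of Slc25a53 had the opposite sign, 0.47. The gene Slc25a53 was called lower with a pseudocount of 64, array weights or an intensity trend.

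**Figure D2:**
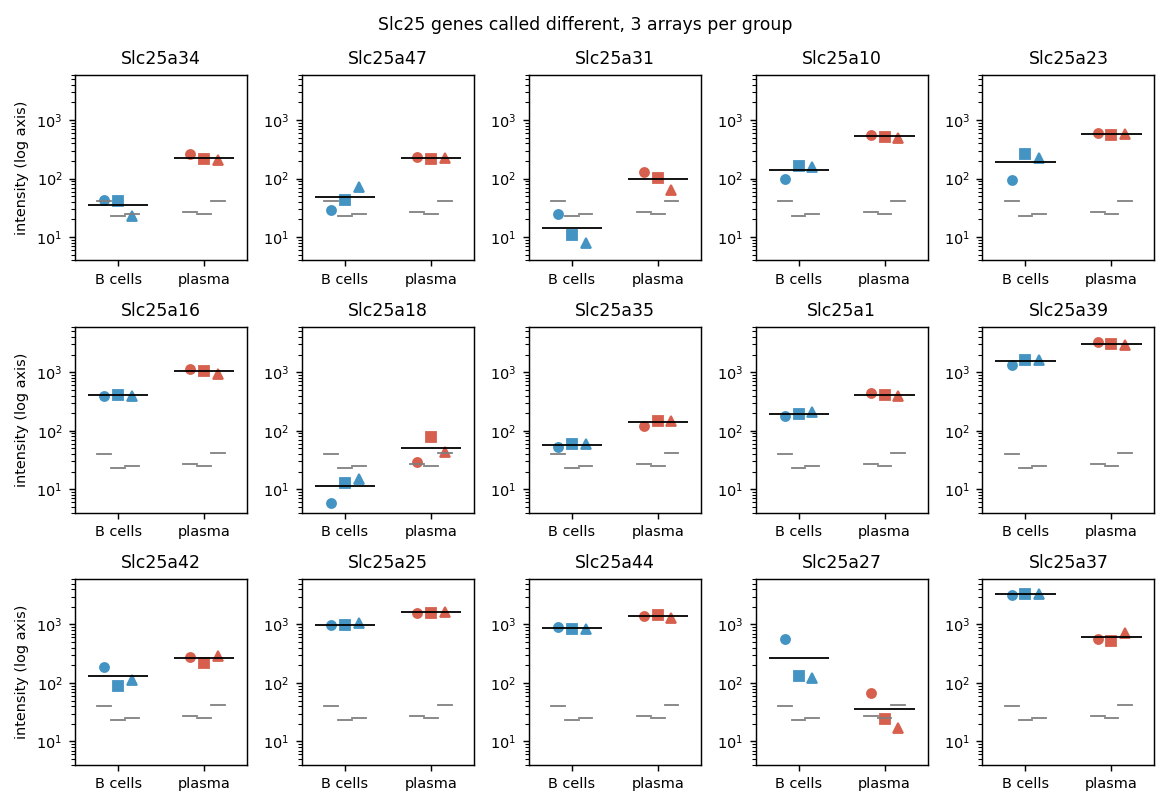
Intensity on a log axis of the 15 called members, in order of log2 fold change, with circles, squares and triangles for arrays 1, 2 and 3 of each group, black lines for group means and short grey lines for the background of each array. The groups are apart in every panel, the B cell values of Slc25a31 and Slc25a18 lie under their background lines, and B cell array 1 departs from arrays 2 and 3 for Slc25a27, Slc25a23 and Slc25a42.

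For 8 pairs of carriers with a shared substrate, chosen with the values of their members known, the log2 ratio of the 2 probe sets (each intensity + 16) was taken within each array and the groups were compared. The order of the 2 genes in each ratio was set along with the pairs, so the common sign of the differences is not a result. The values describe these pairs and support no statement on carriers of a shared substrate in general. Pairs outside the 8 include the ornithine carriers Slc25a15 (0.23) and Slc25a2 (0.03), both not called. Another is Slc25a16 (1.34) with Slc25a42 (0.98), both linked to coenzyme A and both called higher. The level of such a ratio has no meaning across probe sets, so only its difference between groups is given. The ratio of Slc25a5 to Slc25a4 was 2.22, 2.17 and 2.02 in plasma cells and 1.45, 1.30 and 1.37 in B cells, a difference of 0.77 between the ADP/ATP carriers. It was 2.02 for mitoferrin 2 against mitoferrin 1, 1.04 for the glutathione carriers Slc25a39 against Slc25a40 and 1.07 for the pyrimidine nucleotide carriers Slc25a33 against Slc25a36. Among the ATP-Mg/phosphate carriers Slc25a23 differed from Slc25a24 by 1.81 (1.34 without B cell array 1) and Slc25a25 from Slc25a24 by 0.91. The last of these was 0.13 without the x_at probe set of Slc25a25. The glutamate carriers Slc25a18 and Slc25a22 differed by 0.97, a value that ranged from 0.33 to 1.78 with the added constant, Slc25a18 being within background in B cells. In these 7 pairs the groups did not overlap, and each gave p = 0.1 in a two-sided exact permutation test, the smallest that 3 against 3 arrays allow (0.114 adjusted over the 8 pairs), so this design cannot reach 0.05. The aspartate/glutamate carriers Slc25a13 and Slc25a12 overlapped, with a difference of 0.87 (exact permutation p = 0.4), which was 1.44 without B cell array 1.

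**Figure D3:**
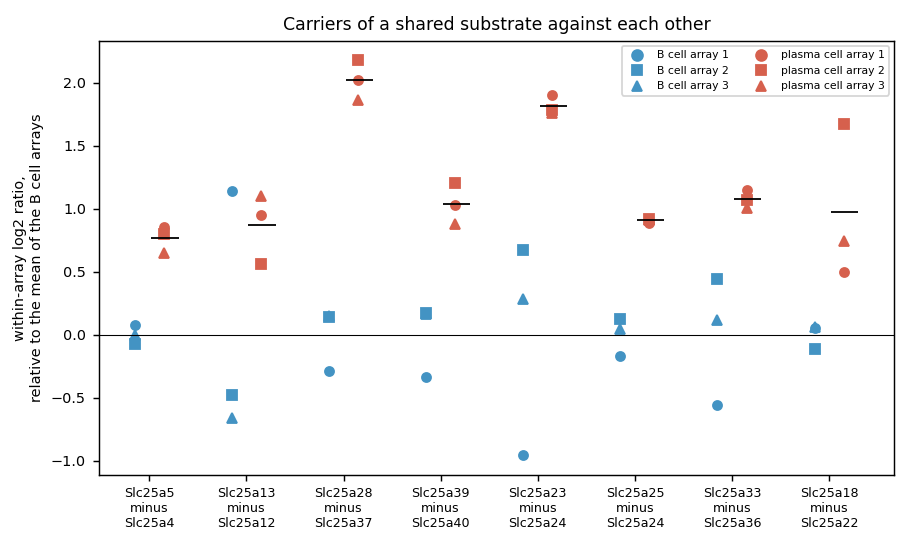
Within-array log2 ratio of 8 pairs of carriers with a shared substrate, set to 0 at the mean of the B cell arrays, with blue for B cells, red for plasma cells and a black line for the plasma cell mean. The plasma cell points lie above the B cell points in every pair other than Slc25a13 against Slc25a12, where B cell array 1 is the highest point of all. Which gene of a pair is subtracted was set by choice, so the common direction is not a result.

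Leaving out B cell array 1 added calls among the members and removed none. All 15 calls were made without it too, in the same directions. Another 4 members were then called higher, Slc25a13, Slc25a17, Slc25a20 and Slc25a33, and another 6 lower, Slc25a4, Slc25a11, Slc25a26, Slc25a28, Slc25a30 and Slc25a45. The B cell arrays left in that comparison differ from every plasma cell array in Xist and Kdm5d, and the part of sex in the added calls was not tested. The largest shift of a called member was that of Slc25a27, from −2.24 to −1.57, followed by Slc25a23, from 1.60 to 1.19. For the 6 members nearest the threshold the adjusted p was 0.0428 for Slc25a42 and 0.0463 for Slc25a27 on the called side, and 0.0507 for Slc25a13, 0.0522 for Slc25a4, 0.0644 for Slc25a33 and 0.0702 for Slc25a30 on the other.

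**Figure D4:**
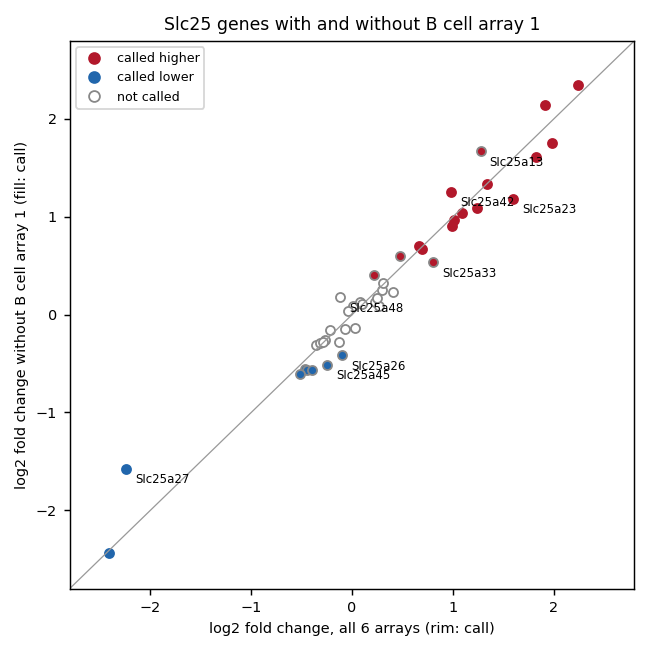
Log2 fold change of the 44 members with all 6 arrays against that without B cell array 1, where the rim shows the call with all arrays and the fill the call without that array. Points lie along the line of equality, and 10 members with a grey rim and a coloured fill are called without that array but not with all 6.

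The genes around these carriers were read from 14 lists, 184 measured genes in all, of which 57 rose and 25 fell (31% and 13.6%, beside 17.6% and 12.3% of all genes), with a median log2 fold change of 0.23. The counts of single lists rest on 7 to 22 measured genes each and are to be read beside these shares of all genes. Values in parentheses are log2 differences. Carriers enter through the outer membrane pore and the TIM22 route. In that import machinery 3 of 14 measured genes rose and 1 fell (median 0.19), with Timm8b (0.94), Timm10b (0.92) and Timm29 (0.68) on one side and the chaperone subunit Timm10 (−0.49) on the other. Of mitochondrial transporters outside the symbol rule 2 of 13 rose and 3 fell (median 0.10). The serine transporter Sfxn1 (0.92) and the SLC25-related Mtch2 (0.50) rose, the latter a call lost when its probe sets were averaged (adjusted p = 0.627), and Sfxn5 (−1.96), Sfxn4 (−0.73) and Sfxn2 (−0.64) of the same sideroflexin family fell. The other SLC25-related outer membrane gene Mtch1 had 0.08 and the pyruvate carrier subunit Mpc1 0.35 (adjusted p = 0.787 and 0.0649). Ucp2 and Mpc2 were not analysed here.

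Enzymes that feed the carriers were mixed. Of shuttle and citrate cycle enzymes 4 of 22 measured genes rose and 2 fell (median 0.14). The share called higher, 18.2%, was near the 17.6% of all genes. Got2, the matrix aspartate aminotransferase that makes the aspartate exported by Slc25a12 and Slc25a13, read 5658, 5837 and 5512 in plasma cells and 2280.4, 2603 and 2439 in B cells (log2 difference 1.21, SE 0.12, limma adjusted p = 0.000769). The malic enzyme Me1, within background on all 3 B cell arrays and so at least 2.52-fold higher, and the succinyl-CoA ligase subunit Suclg2 (1.32) rose, while Gpd2, the mitochondrial glycerol phosphate dehydrogenase, read 969, 1033 and 1348 in plasma cells against 3440, 3569.8 and 4037 in B cells (−1.72) and Fh1 (−0.89), fumarase, fell. Among one-carbon enzymes, which use the folate that Slc25a32 brings in, 4 of 9 measured genes rose and 2 fell (median 0.37). Aldh1l2 (4.18), Mthfd2 (2.28) and Shmt2 (1.60) rose and Mthfd1l (−0.89) and Mtfmt (−0.56) fell, while Slc25a32 itself was not called (−0.32). Aldh1l2 was above background on only 2 B cell arrays, so its value depends on the added constant. Among amino acid enzymes 3 of 13 measured genes rose and 2 fell (median 0.24), with the alanine aminotransferase Gpt2 (3.77), the proline and ornithine synthesis enzyme Aldh18a1 (1.61) and the branched-chain aminotransferase Bcat2 (1.34) higher and Arg2 (−0.72) and the glutamate dehydrogenase Glud1 (−0.68) lower. Bcat2 acts on the branched-chain amino acids that Slc25a44 carries.

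Among ATP synthase subunits and their inhibitor 8 of 16 measured genes rose and 0 fell (median 0.44), with Atp5g1 (1.23), Atp5o (0.65) and the inhibitor Atpif1 (0.64) in front. The value of Atpif1 was −0.14 with the mean of its probe sets. In the carnitine shuttle and beta-oxidation 6 of 14 measured genes rose and 0 fell (median 0.38), led by the electron transfer flavoproteins Etfb (1.22) and Etfa (0.88) and the acyl-CoA dehydrogenase Acadvl (0.83). In heme and iron-sulfur synthesis, which use the iron that the mitoferrins import, 6 of 14 measured genes rose and 1 fell (median 0.16). The porphyrin enzyme Cpox (1.18), the scaffold Iscu (1.00) and the ferrochelatase Fech (0.83) rose and the cysteine desulfurase Nfs1 (−0.44) fell. Among glutathione and peroxide genes 5 of 11 measured genes rose and 1 fell (median 0.11), with the glutathione reductase Gsr (1.71), Gpx4 (0.93) and the superoxide dismutase Sod2 (0.80) higher and Txnrd2 (−0.43) lower. Around the calcium uniporter 2 of 7 measured genes rose and 1 fell (median 0.28): Micu2 (0.67) and the sodium/calcium exchanger Slc8b1 (0.70) rose and Mcur1 (−1.04) fell, and the pore subunit Mcu had 0.28 (adjusted p = 0.418).

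Lower calls outnumbered higher ones among the cofactor enzymes and the biogenesis regulators. Of cofactor and mitochondrial nucleotide enzymes 4 of 17 measured genes rose and 9 fell (median −0.46). The mitochondrial thymidine kinase Tk2 (−2.03) and 2 coenzyme A synthesis genes, Ppcs (−1.30) and Pank4 (−1.04), were lowest, while Coasy (0.59), which completes coenzyme A, Nmnat3 (1.12) and Nadk2 (0.66) rose. Of biogenesis regulators 1 of 11 measured genes rose and 3 fell (median −0.38): the coactivator Ppargc1a (−3.14), within background on all 3 plasma cell arrays, at 756, 180.5 and 189.5 in B cells and so at least 9.7-fold lower (at least 6.07-fold without B cell array 1, fitted −2.49), Esrra (−1.63) and Nrf1 (−1.17) fell and Tfb1m (1.48) rose. Among the other transporters the counts of 2 higher and 3 lower were level with a pseudocount of 1 (2 and 2) and without B cell array 1 (3 and 3). Among mitochondrial dynamics genes 2 of 11 measured genes rose, Fis1 (0.77) and Mief2 (0.43), and 0 fell (median 0.13). Their share called higher, 18.2%, was near the 17.6% of all genes. Among integrated stress response genes 7 of 12 measured genes rose and 0 fell (median 1.44), among them Asns (5.94), Chac1 (5.71) and Atf5 (3.28). Chac1 was above background on only 1 B cell array, so its value depends on the added constant. Atf4 was not called, with 0.31 (adjusted p = 0.397). Without B cell array 1 the 14 lists together had 66 genes higher and 38 lower, beside 22.7% and 21.1% of all genes. Their median was then 0.10. It was 0.04 for amino acid enzymes, 0.03 around the calcium uniporter and 0.46 for glutathione and peroxide genes. Mcu then had 0.03 and Atf4 0.04.

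Many of the small changes named from the lists did not hold under every alternative. Of 37 genes named as higher 23 held under all that measured them, and of 19 named as lower 7 did: Gpd2, Mcur1, Tk2, Ppcs, Ppargc1a, Esrra and Nrf1. With median centring 11 of the lower calls were lost, those of Timm10, Sfxn2, Sfxn4, Fh1, Mthfd1l, Mtfmt, Arg2 (adjusted p = 0.15), Glud1 (adjusted p = 0.242), Nfs1, Pank4 and Txnrd2. The same setting lost 12 higher calls, those of Timm29, Mtch2, Slc8b1, Atp5o, Atpif1, Acadvl, Nadk2, Coasy, Gpx4, Sod2, Fis1 and Mief2. Without any 1 array other than B cell array 1, the calls of Timm10, Sfxn2, Mtfmt, Glud1, Nfs1, Txnrd2, Mtch2, Nadk2 and Mief2 were lost. That of Atp5g1 was lost when its probe sets were averaged (adjusted p = 0.0878), and those of Sfxn5 and Fech when some arrays were left out.

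**Figure D5:**
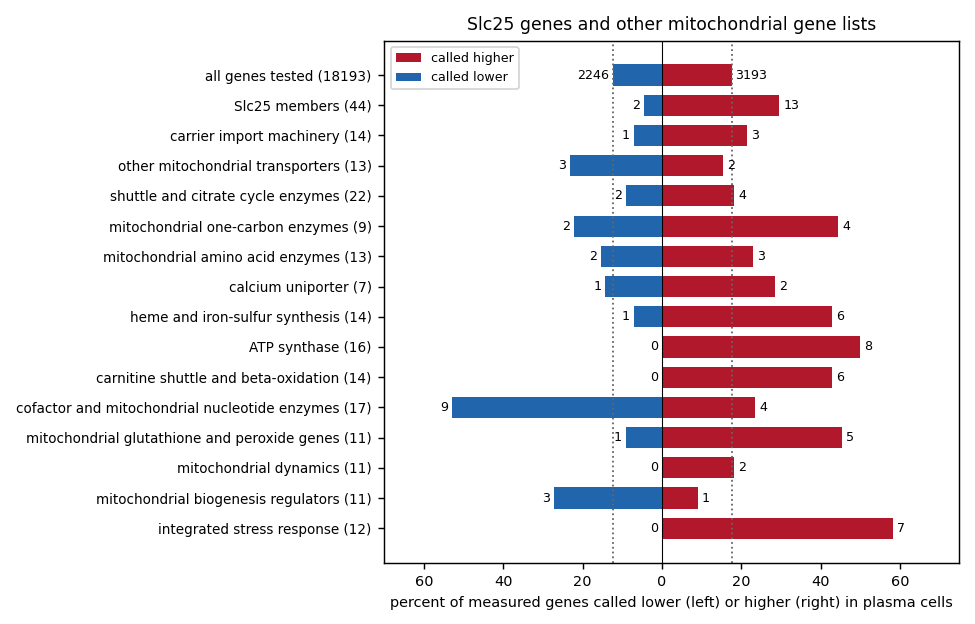
Percent of the measured genes called higher (right) or lower (left) in plasma cells, for all genes, the Slc25 members and 14 lists of other mitochondrial or related genes, with the number measured in parentheses, the number called beside each bar and dotted lines at the percentages of all genes. The members show 13 higher and 2 lower calls, and the cofactor and mitochondrial nucleotide enzymes 4 higher and 9 lower.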

How the data were processed

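Gene expression was read from 1-colour Affymetrix arrays. The deposited table holds intensity values on a linear scale for 45101 probe sets; no source used here says how the authors summarised, background-corrected or scaled them. Per the labels' protocols, RNA was amplified with NuGEN Ovation V2 and labelled with biotin. Sample columns were matched by name, with 0 left over. The platform annotation gave 1 symbol to 34945 probe sets, and 34741 were updated by Entrez identifier through RefSeq GRCm38.p6. Values became log2(intensity + 16). The probe set with the highest mean of each gene was fitted over all 18193 genes with limma 3.58.1 in R 4.3.3 (lmFit, eBayes), 3 plasma cell against 3 B cell arrays, adjusted by Benjamini-Hochberg. With 3 arrays a group, precision is limited.

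The members and lists were chosen with earlier results of these data known. Values per array are given for called members with a log2 fold change of at least 1, for Slc25a1, Slc25a3, Slc25a4 and Slc25a5, and, chosen after their values were seen, for the other members where a result turned on them. From each list up to 3 called genes per direction are named, with genes fixed by name. The alternatives were a pseudocount of 1 or 64, median centring, quantile normalization, a filter on low values, the mean of probe sets, leaving out x_at and s_at probe sets, array weights, an intensity trend, a replicate block and leaving out each array. A choice of probe set by linear mean was added after seeing the data. Same-numbered arrays were not paired by the labels.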

Additional observations from a re-analysis of the deposited data

How the results depend on the processing

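Limits: 3 arrays a group, no stated animals, and dim members whose fold depends on the added constant. Of the 15 called members 14 kept their direction and 9 their call under each of the 17 alternatives that measured them (Slc25a47 had 16). Slc25a25 reversed to −0.0891 without x_at and s_at probe sets, where Slc25a26 turned to 0.54, and Atpif1 was −0.14 with the mean of probe sets. The count of members called higher ranged from 10 to 17 when 1 array was left out. That of members called lower, 2, was 1 with a pseudocount of 1, 6 with 64, 4 after quantile normalization, 5 with the filter on low values, 10 with array weights, 6 with an intensity trend, and 1 to 8 when 1 array was left out, 8 being without B cell array 1. Over all genes 2246 were called lower in the main fit. That count was 2086 with a pseudocount of 1, 2442 with 64 and 2365 after quantile normalization. It was 2475 with the filter, which left 13636 genes, and 2541 with an intensity trend. Why the count of members moved was not tested. Array weights gave B cell array 1 a weight of 0.0938. Median centring moved the median log2 fold change of all genes from −0.06 to 0.06, and no called member changed sign with it. Over all genes array weights gave 4840 higher and 4654 lower, median centring 1243 lower, and leaving out 1 array 2224 to 4121 higher and 1347 to 3830 lower. Median centring left 31 genes of the 14 lists higher and 8 lower, array weights gave 44 lower, and leaving out 1 array gave 33 to 66 higher and 11 to 38 lower.

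The replicate numbers pair nothing that the labels state: the deviations of same-numbered arrays had correlations of 0.048, 0.0047 and 0.046. With the replicate number as a block the same counts of 13 members higher and 2 lower were found, and in the 14 lists 37 genes higher and 16 lower.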
